A study of Mus musculus with 2 samples.

Results

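Promoters of long non-coding RNA (lncRNA) genes were described in 1 chromatin immunoprecipitation sequencing (ChIP-seq) library made with an antibody to Zfp322a and 1 made with IgG. A promoter was the window from 1000 bp before to 1000 bp after the outermost 5′ end of a gene, called its transcription start site (TSS), in the GENCODE vM1 annotation of mouse genome build mm9. The rule took every gene whose type was lincRNA or antisense. The annotation held 1273 genes of type lincRNA and 0 of type antisense, so the members were 1273 of the 23653 windows counted, and the other 22380 were protein-coding. Of the members, 695 had no TSS of a protein-coding transcript within 1 kb and are called lone promoters here, and 578 had one and are called paired promoters. The 21867 protein-coding promoters with no lncRNA TSS within 1 kb were set against them. The lincRNA label did not mean a place between genes for all of them, since 273 of the lone TSSs lay inside a protein-coding gene on the opposite strand.

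Both libraries came from E14 cells, a mouse embryonic stem (ES) cell line grown with LIF, and the labels give C57BL/6 as the background strain. Zfp322a is a zinc finger protein that the study examined for its part in pluripotency. Chromatin was precipitated with an anti-ZNF322 antibody, and the control used an antibody to rabbit IgG. With 1 library for each antibody there was no replicate, so intervals and p-values below compare these libraries, not conditions, and cover counting error only. Of 5187475 Zfp322a reads and 4843481 IgG reads, 4151151 and 3877802 had a mapping quality of at least 25, and those were counted. A fold per read is the Zfp322a count over the IgG count, each divided by its library total, so that 1 means no difference. Over whole chromosomes the fold per read ran from 0.507 on Y and 0.760 on chromosome 8 to 1.32 on X, and it was 0.955 over windows of 2000 bp more than 5 kb from any TSS.

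LncRNAs are transcripts made by RNA polymerase II with little or no capacity to code for protein. Many start from the CpG-rich promoter of a protein-coding gene and run away from it, so that a single stretch of open chromatin serves both genes, while others have promoters of their own, often poorer in CpG. Some are known for roles in ES cells or early development, such as Xist, which coats the inactive X chromosome, while others serve mainly as hosts from whose introns small nucleolar RNAs (snoRNAs) are cut.

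Stretches of 5 of the member promoters described below are shown as examples. The promoter with the largest count, Gm11602, is not among them. They are printed 5′ to 3′ on the strand of the lncRNA gene, from mm9, and capitals mark matches to the motifs searched. The motifs were TATAAA (the TATA box), CCAAT (the box bound by NF-Y), GGGCGG (the GC box bound by Sp1), GCGCATGC (the NRF1 core) and AANATGGCG (the YY1 core), none of which contains another, each searched on both strands, so that a reverse complement is also in capitals. The first is 200 bp around the highest point of Zfp322a reads at Gm17559 (chr2:152522583-152522782, minus strand) and the others are 250 bases before to 50 after the TSS, at 1700020I14Rik (chr2:119419783-119420082, plus strand), C920006O11Rik (chr9:78023471-78023770, plus strand), Snhg7 (chr2:26495715-26496014, minus strand) and Tug1 (chr11:3548766-3549065, minus strand).
Gm17559: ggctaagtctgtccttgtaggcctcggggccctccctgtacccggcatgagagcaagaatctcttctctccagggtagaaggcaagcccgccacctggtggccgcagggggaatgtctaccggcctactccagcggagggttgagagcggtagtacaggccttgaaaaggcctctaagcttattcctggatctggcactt
1700020I14Rik: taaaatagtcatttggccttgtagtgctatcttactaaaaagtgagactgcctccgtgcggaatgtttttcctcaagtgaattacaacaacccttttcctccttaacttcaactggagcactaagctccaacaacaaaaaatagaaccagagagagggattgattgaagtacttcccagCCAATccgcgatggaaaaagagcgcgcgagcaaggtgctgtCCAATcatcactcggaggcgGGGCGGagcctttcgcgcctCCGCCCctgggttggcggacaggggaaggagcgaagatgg
C920006O11Rik: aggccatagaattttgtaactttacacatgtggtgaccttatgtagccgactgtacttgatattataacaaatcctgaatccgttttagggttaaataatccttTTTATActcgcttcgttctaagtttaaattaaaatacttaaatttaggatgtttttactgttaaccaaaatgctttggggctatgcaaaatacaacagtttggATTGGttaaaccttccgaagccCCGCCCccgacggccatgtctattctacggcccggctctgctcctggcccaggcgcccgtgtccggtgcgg
Snhg7: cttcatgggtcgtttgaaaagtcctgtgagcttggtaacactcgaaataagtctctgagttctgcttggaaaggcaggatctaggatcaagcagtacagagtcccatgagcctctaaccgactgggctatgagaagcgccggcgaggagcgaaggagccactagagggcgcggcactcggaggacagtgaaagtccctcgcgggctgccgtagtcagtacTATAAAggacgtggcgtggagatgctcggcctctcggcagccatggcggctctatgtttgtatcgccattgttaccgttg
Tug1: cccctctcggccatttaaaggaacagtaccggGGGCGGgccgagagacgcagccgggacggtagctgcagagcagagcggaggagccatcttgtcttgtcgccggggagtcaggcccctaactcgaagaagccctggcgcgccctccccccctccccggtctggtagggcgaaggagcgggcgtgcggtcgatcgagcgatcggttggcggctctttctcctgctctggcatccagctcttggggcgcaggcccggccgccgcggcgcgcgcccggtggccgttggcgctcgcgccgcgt

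These stretches differed in what they hold. The Gm17559 stretch, with 7 CpGs, had no match to any of the 5 motifs, whereas the 1700020I14Rik promoter held 2 CCAAT and 2 GGGCGG matches. C920006O11Rik held 1 TATAAA, 1 CCAAT and 1 GGGCGG match, Snhg7 had a single TATAAA match, and Tug1, with 38 CpGs in 300 bases, had a single GGGCGG match. The printed stretches of 1700020I14Rik and C920006O11Rik do not reach the highest points of their Zfp322a reads. The 200 bp around those points held 1 GGGCGG match at 1700020I14Rik and 0 matches at C920006O11Rik. Over the members, GGGCGG was found in 25.6% of lone and 63.0% of paired promoters, beside 43.4% of all 23653 promoters of the same length. TATAAA was found in 13.1% of lone and 4.15% of paired promoters, beside 13.2% of all. The CCAAT shares lay close together, at 36.7% of lone, 33.7% of paired and 37.8% of all promoters. GCGCATGC matched in 1.01% of lone, 5.19% of paired and 3.28% of all, and AANATGGCG in 0.863%, 3.11% and 2.97%.

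Lone promoters carried fewer reads of both libraries than paired ones, and a smaller excess of Zfp322a over IgG reads. The median lone promoter held 7 Zfp322a and 6 IgG reads. The median paired promoter held 16 and 11, and the median protein-coding promoter 11 and 8. Summed over the class, the 695 lone promoters had 6544 Zfp322a and 5030 IgG reads, or 1.22-fold per read (95% interval 1.17 to 1.26). The 578 paired promoters had 10088 and 6392 reads, or 1.47-fold per read (1.43 to 1.52), and the protein-coding promoters 1.41 (1.40 to 1.42). The fold of the lone class was 0.862 times that of the protein-coding class (0.830 to 0.895) and 0.824 times that of the paired class (0.785 to 0.865). The paired class was 1.05 times the protein-coding class (1.01 to 1.08), a narrow margin. A single paired promoter, Gm11602, held 143 of these Zfp322a reads and 7 of the IgG reads. The quotient without it was not computed, so the margin may rest on that promoter. Single windows gave the same order of lone against paired. Among windows with at least 10 reads of both libraries together, the median fold per read was 1.17 over 487 lone promoters, 1.40 over 551 paired ones and 1.40 over all 16987. No Zfp322a or IgG read of sufficient quality fell in 24 lone and 2 paired promoters, each of which held reads of lower mapping quality.

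**Figure D1:**
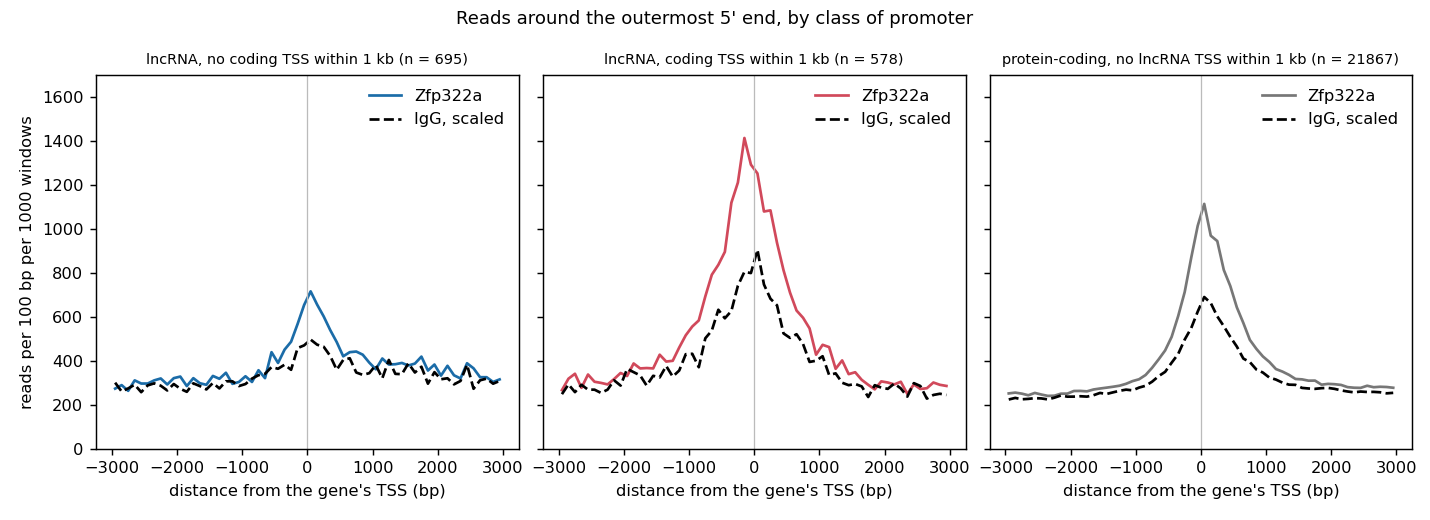
Reads per 100 bp and 1000 windows (y) from 3000 bp before to 3000 bp after the TSS (x) for lone lncRNA, paired lncRNA and protein-coding promoters, with Zfp322a as a solid line and IgG, scaled to the Zfp322a library, as a dashed line. IgG reads peak at the TSS in every class, and the gap above them is smallest at lone lncRNA promoters, where Zfp322a reaches 715 and scaled IgG 496.

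IgG reads peaked at the TSS in all classes. The bin with the highest fold per read differed between classes, but at paired and protein-coding promoters its interval overlapped that of another bin. At lone promoters the bin from the TSS to 100 bp downstream held most reads of both libraries, 497 Zfp322a and 322 IgG reads, and also had the highest fold per read, 1.44 (1.25 to 1.66). At paired promoters the Zfp322a reads were densest from 200 to 100 bp upstream of the lncRNA TSS, with 816 Zfp322a and 434 IgG reads, 1.76-fold (1.56 to 1.98). Their fold per read was highest from 400 to 300 bp upstream, at 1.79 (1.56 to 2.04), not separable from that of the densest bin. The Gm11602 promoter had 130 Zfp322a reads within 500 bp of its TSS, and its part in these bins was not counted. The IgG reads of paired promoters, in contrast, were densest from the TSS to 100 bp downstream, where 723 Zfp322a and 488 IgG reads gave 1.38 (1.23 to 1.56). Protein-coding promoters had their highest fold, 1.63 (1.59 to 1.66), in the 100 bp before the TSS, beside 1.61 (1.58 to 1.65) in the 100 bp after it.

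Paired promoters were richer in GC and CpG than protein-coding ones, and lone promoters poorer. Median GC content was 48.3% in lone, 55.0% in paired and 51.0% in protein-coding windows. Windows with at least 50% GC and an observed over expected CpG ratio of at least 0.6, called CpG-rich here, made up 63 of 695 lone promoters (9.06%), 306 of 578 paired (52.9%) and 29.1% of protein-coding promoters. Within the CpG-rich windows the fold per read was 1.34 (1.22 to 1.48) at lone, 1.54 (1.48 to 1.60) at paired and 1.55 (1.54 to 1.56) at protein-coding promoters. The lone promoters thus stayed lower, at 0.867 times protein-coding (0.787 to 0.954), while the paired ones were at 0.993 times (0.952 to 1.04). Within the other windows the folds were 1.19 (1.15 to 1.24), 1.39 (1.32 to 1.46) and 1.31 (1.30 to 1.32). There the lone class was at 0.915 times protein-coding (0.878 to 0.953), and the paired class was at 1.06 times (1.01 to 1.12). Mean IgG reads per window there were 6.83 at lone and 6.81 at protein-coding promoters. In CpG-rich windows the IgG means were 11.3 at lone and 12.4 at protein-coding promoters. Whether the IgG level bears on the lower fold of lone promoters was not tested.

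Split by GC content alone, the lone promoters were lower than protein-coding ones in the 4 bins from 45% upward and not separable from them below 45%. Of the lone promoters, 50 had under 40% GC, with 138 Zfp322a and 137 IgG reads, or 0.941-fold per read (0.737 to 1.20). The 153 lone promoters of 40 to 45% GC had 1.09 (0.977 to 1.21). The 215 of 45 to 50% had 1.23 (1.15 to 1.32) beside 1.39 (1.37 to 1.41) in protein-coding promoters, a quotient of 0.888 (0.826 to 0.953). The quotient was 0.856 (0.804 to 0.911) over 184 promoters of 50 to 55% GC and 0.893 (0.817 to 0.976) over 73 of 55 to 60%. Only 20 lone promoters had 60% GC or more, and 288 Zfp322a and 255 IgG reads there gave 1.06 (0.888 to 1.25), at 0.740 times (0.625 to 0.877) protein-coding ones. Paired promoters had 1.22 (0.978 to 1.53) at 40 to 45%, 1.54 (1.46 to 1.64) at 50 to 55%, 1.51 (1.43 to 1.60) at 55 to 60% and 1.40 (1.31 to 1.49) over the 120 of 60% or more. Protein-coding promoters were likewise highest at 50 to 55%, with 1.47, and none of the paired promoters' quotients to protein-coding promoters by GC bin had an interval that left out 1.

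**Figure D2:**
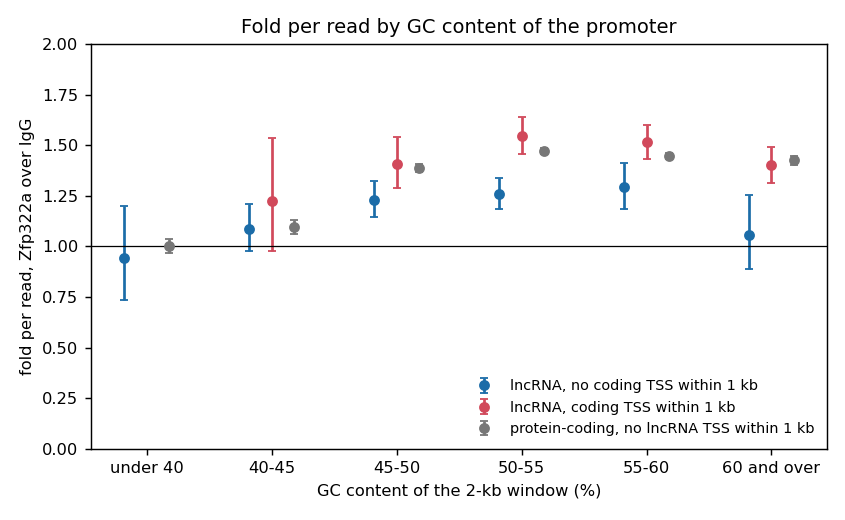
Fold per read, Zfp322a over IgG (y), by GC content of the 2000-bp window (x), with 95% counting intervals, for the 3 classes of promoter. Lone lncRNA promoters (blue) lie below protein-coding ones (grey) from 45% GC upward, with 1.23 against 1.39 at 45 to 50%, and paired ones (red) lie beside them.

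Lone promoters were next split by where they lie. Outside protein-coding genes lay 402, with a fold per read of 1.24 (1.18 to 1.30), and the 273 inside a protein-coding gene on the opposite strand had 1.19 (1.12 to 1.27). The 18 inside a gene of the same strand had 120 Zfp322a and 102 IgG reads, 1.10 (0.837 to 1.45), and 2 lay in genes of both strands. The intervals of the first 3 overlap. For 44 lone promoters the TSS fell in protein-coding sequence of the opposite or same strand, with 544 Zfp322a and 384 IgG reads and a fold of 1.32 (1.16 to 1.51). For 51 it fell in another exon part, with 418 and 365 reads and 1.07 (0.927 to 1.23), and for 600 in no exon, with 1.22 (1.17 to 1.27).

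Distance from the nearest protein-coding TSS gave a fold per read of 1.16 (1.05 to 1.28) at 1000 to 2000 bp, where the 77 windows reach into the 1000 bp next to that TSS. The fold was 1.32 (1.19 to 1.47) over 92 lone promoters at 2000 to 5000 bp and 1.28 (1.20 to 1.37) over 203 at 5000 to 20000 bp. It was 1.19 (1.12 to 1.27) over 255 at 20000 to 100000 bp. The 68 lone promoters more than 100000 bp away had 445 Zfp322a and 405 IgG reads, 1.03 (0.895 to 1.18), an interval that holds 1 and overlaps those of the nearest bin and of 20000 to 100000 bp.

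Each paired lncRNA was transcribed from the opposite strand to its partner, in 1 of 2 arrangements. In 363 the genes ran away from each other, head to head, and in 215 their 5′ parts overlapped. Head-to-head promoters had 6777 Zfp322a and 4112 IgG reads, or 1.54-fold per read (1.48 to 1.60), and overlapping ones 3311 and 2280 reads, 1.36 (1.29 to 1.43). The first was 1.13 times the second (1.06 to 1.21). The median distance between the TSSs also differed, at 148 bp head to head and 389 bp in overlapping pairs. Protein-coding genes with another protein-coding gene head to head within 1 kb were a closer comparison than protein-coding genes at large. The 1601 such promoters had 1.64 (1.61 to 1.67), and head-to-head lncRNA promoters were at 0.937 times that level (0.899 to 0.978). In CpG-rich windows the quotient was 0.986 (0.935 to 1.04), and in the others it was 0.856 (0.798 to 0.919).

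At pairs whose TSSs lay at least 300 bp apart, the reads of each end could be counted separately, and the coding end held more. Within 150 bp of the lncRNA TSS, 208 such pairs had 548 Zfp322a and 396 IgG reads, or 1.29-fold per read (1.13 to 1.47). Within 150 bp of the protein-coding TSS the same pairs had 828 and 484 reads, 1.60 (1.43 to 1.79). Zfp322a reads were more at the coding end in 110 pairs, more at the lncRNA end in 56 and equal in 42. IgG reads were also more at the coding end, in 99 pairs against 71. In the 135 overlapping pairs the intervals of the ends did not meet. They had 324 Zfp322a and 257 IgG reads at the lncRNA end, 1.18 (0.997 to 1.39), and 529 and 306 at the coding end, 1.61 (1.40 to 1.87). The 73 head-to-head pairs had 224 and 139 reads, 1.51 (1.21 to 1.87), at the lncRNA end and 299 and 178, 1.57 (1.30 to 1.90), at the coding end, values that overlap. Whether the arrangements differ in this was not tested.

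A single promoter was called where it held at least 9 Zfp322a reads anywhere in its 2000 bp and reached 3-fold over IgG per read, with an IgG count of 0 taken as 1. The numbers 9 and 3 are the study's limits for peak heights, which are reads overlapping at a base, so this rule on counts is a looser one and not the study's. Only 6 of the called lone and 22 of the called paired promoters described below had a height of at least 9 overlapping Zfp322a reads. Over all windows 5.18% were called. Of the lone promoters 23 were called (3.31%, exact 95% interval 2.11 to 4.92), and of the paired ones 32 (5.54%, 3.82 to 7.73). The paired share lay near the background and the upper limit of the lone share under it. Split by CpG, however, the lone shares were not separable from the protein-coding ones. In windows that were not CpG-rich, 3.32% of lone promoters (2.07 to 5.03) and 3.84% of protein-coding ones (3.55 to 4.16) were called. In CpG-rich windows 3.17% of lone and 8.52% of protein-coding promoters were called. The lone share there rests on 2 calls among 63, and its interval holds the protein-coding share. With the libraries exchanged, 0.575% of all windows, 7 lone promoters and 6 paired ones passed the same rule. Reads of a mapping quality under 25, counted on their own, passed it at 6 of the 1273 lncRNA promoters, beside 0.304% of all windows, and with the libraries exchanged at 2, beside 0.0676%. An exact conditional binomial test, two-sided and adjusted by Benjamini-Hochberg over the 16987 windows with at least 10 reads, put 4.86% of these below 0.05 with Zfp322a higher and 0.0471% with IgG higher. By that test 11 lone and 24 paired promoters had more Zfp322a reads, and 0 lone and 0 paired promoters had more IgG reads. At an unadjusted exact p under 0.05 the numbers were 42 lone and 107 paired promoters with Zfp322a higher, beside 17.3% of the tested windows, and 9 and 6 with IgG higher, beside 0.924%.

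The called lone promoters were small sites for the most part. Their Zfp322a counts ran from 9 to 70 with a median of 14, their IgG counts from 1 to 15 with a median of 3, and 8 of the 23 held 11 or fewer Zfp322a reads. The highest point of Zfp322a reads, with each read extended to 300 bp, was within 300 bp of the TSS in 13. Outside protein-coding genes lay 14 of the 23, beside 402 of all 695 lone promoters. CpG-rich were 2, beside 9.06% of the class, and 2 overlapped a region that the authors deposited for Zfp322a. More than 5 kb from the TSS of a protein-coding transcript lay 18, as did the 203, 255 and 68 lone promoters of the 3 farthest distance bins. Among these 18, a non-coding transcript of a protein-coding gene started within 5 kb at 4932412D23Rik, Gm17574 and Gm17559, 119, 712 and 4853 bp away. At F630040L22Rik, Gm17286 and Gm17354 one also started nearer than the protein-coding transcript, but more than 5 kb away. The 32 called paired promoters held 9 to 143 Zfp322a reads (median 24.5) and 1 to 14 IgG reads. CpG-rich were 16 of them, beside 52.9% of all paired promoters, and 9 overlapped a deposited region. In 20 of these 32 the highest point was nearer to the protein-coding TSS than to the lncRNA TSS. Shares of the full classes are not given for this count or for the 13 above, so neither sets called promoters apart. Over the whole classes, 5 lone (0.719%) and 22 paired promoters (3.81%) overlapped a deposited region, beside 3.03% of all windows.

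**Figure D3:**
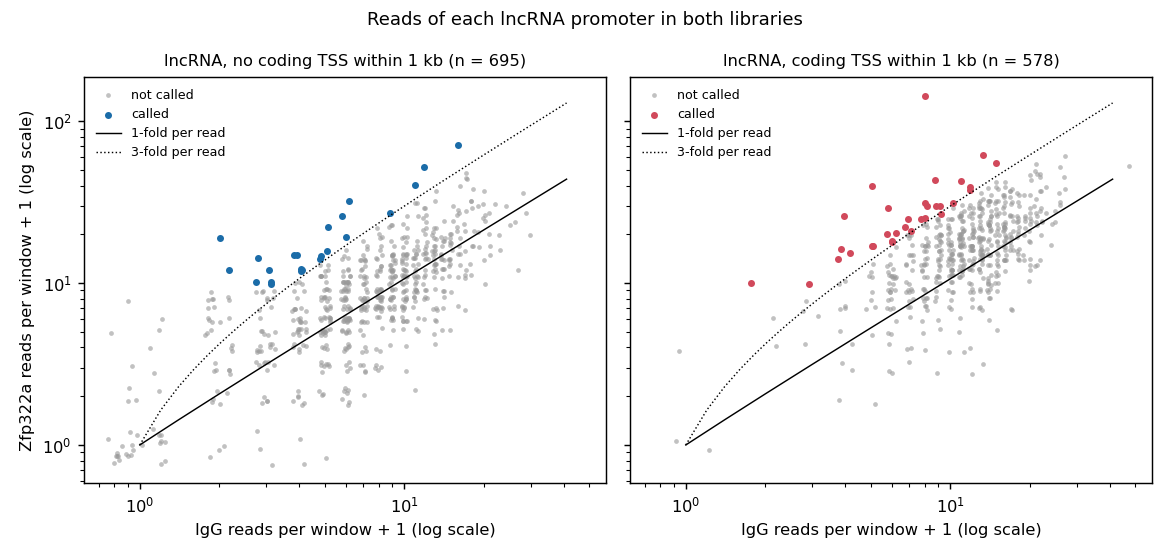
Zfp322a reads (y) against IgG reads (x) of each lone (left) and paired (right) lncRNA promoter, both plus 1, on log axes and spread slightly so that equal counts can be seen. The solid line is 1-fold and the dotted line 3-fold per read, and coloured points are the 23 lone and 32 paired promoters called.

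The lone promoter with the smallest p was Gm17559 (chr2:152521428-152523428), which lies inside H13 on the opposite strand, 9544 bp from the TSS of Mcts2, an imprinted retrogene within that gene. It held 70 Zfp322a and 15 IgG reads, 4.36-fold (2.47 to 8.20, adjusted p = 3.91e-06, exact binomial). The Zfp322a reads stood in 1 steep peak of 43 overlapping reads, 255 bp upstream of the TSS, where IgG reached at most 4 in the window. Within 500 bp of the TSS the counts were 62 and 6, 9.65-fold. The stretch printed above for Gm17559 is the 200 bp around that peak, and its window was poor in CpG, with an observed over expected ratio of 0.27.

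At F630040L22Rik (chr9:108006296-108008296), inside Bsn, the gene of the presynaptic scaffold protein Bassoon, 51 Zfp322a and 11 IgG reads gave 4.33-fold (2.23 to 9.22, adjusted p = 1.72e-04, exact binomial), and within 500 bp 32 and 3 reads gave 9.96-fold. The peak was broader and lower than at Gm17559, with at most 16 Zfp322a and 8 IgG reads over a base. 4932412D23Rik (chr16:42874875-42876875) held 31 and 5 reads, 5.79-fold (2.23 to 19.1, adjusted p = 2.90e-03, exact binomial). It counts as lone only because protein-coding transcripts defined the pairs: the outermost TSS of Zbtb20, a zinc finger repressor, lies 119 bp away and belongs to a non-coding transcript of that gene.

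1700020I14Rik (window chr2:119419033-119421033) is the mouse form of Cyrano, a conserved lncRNA known for its site for the microRNA miR-7, and it stands 24001 bp from the next protein-coding TSS. Its promoter held 39 Zfp322a and 10 IgG reads, 3.64-fold (1.79 to 8.18, adjusted p = 5.53e-03, exact binomial). The highest point was 244 bp downstream of the TSS with 25 overlapping Zfp322a reads, and IgG rose to 7 near the same place. At C920006O11Rik (chr9:78022721-78024721) 18 Zfp322a reads met 1 IgG read, 16.8-fold with an interval from 2.65 to 701 (adjusted p = 5.75e-03, exact binomial). That promoter lies 281 bp from the annotated 7SK gene, which makes a small RNA polymerase III transcript that holds back the elongation factor P-TEFb, and no more than 7 Zfp322a reads overlapped at any base.

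Among the next 7 lone promoters by p, the TSS lay within an exon of a protein-coding gene of the opposite strand in 4. Gm17585, in an untranslated part of the extracellular matrix gene Vwa1, held 47 Zfp322a and 16 IgG reads, 2.74-fold, and 5.98-fold within 500 bp. Gm16912 in coding sequence of the kinase gene Pim1 held 25 and 5, 4.67-fold. Gm16599 in coding sequence of the homeobox gene Cux1 held 44 and 16, 2.57-fold, with a peak of 29 reads against 5 at 295 bp upstream. Gm17242 in coding sequence of Gm1568 held 36 and 12, 2.80-fold, in a window of 73.1% GC. The adjusted p of these 4 ran from 0.014 at Gm17585 to 0.0334 at Gm17242 by the exact binomial test. Outside genes, Gm2885 held 43 and 16 reads, 2.51-fold, and Gm11532 held 21 and 4, 4.90-fold, both with an adjusted p of 0.0291 by that test. Gm17682, 1351 bp from the TSS of the Krüppel-like factor gene Klf16, was the twelfth with 39 and 15 reads, 2.43-fold, and its adjusted p was 0.0508. Its highest point lay 660 bp upstream, and 691 bp from the Klf16 TSS.

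**Figure D4:**
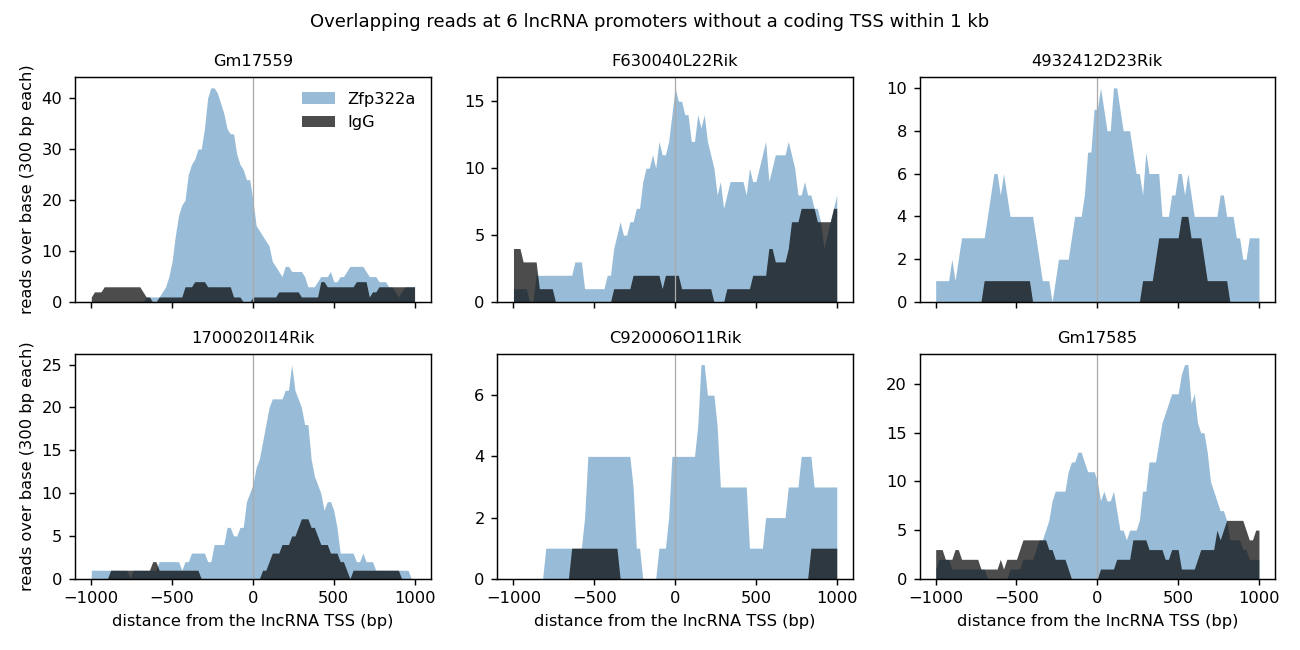
Number of reads over each base, every 20 bp, with reads extended to 300 bp (y), against distance from the lncRNA TSS (x), at the 6 lone promoters of smallest p, with Zfp322a in blue and IgG in black. Gm17559 and 1700020I14Rik show 1 narrow peak each, whereas the 18 Zfp322a reads of C920006O11Rik are spread over the window.

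Paired promoters held the largest single counts. Gm11602 (chr1:63160045-63162045), opposite to Ino80d, a subunit gene of the INO80 chromatin remodelling complex, had 143 Zfp322a and 7 IgG reads, 19.1-fold (9.03 to 48.3, adjusted p = 1.70e-28, exact binomial), with 103 overlapping reads at the highest point, 31 bp from the Ino80d TSS. 2210406O10Rik (chr5:36806502-36808502) beside Grpel1, which encodes a mitochondrial chaperone cofactor, held 39 and 4, 9.11-fold, and 9330104G04Rik beside the Wnt regulator gene Dact3 held 25 and 3, 7.78-fold with an interval of 2.38 to 40.3. At Dact3 the highest point was 21 bp from the coding TSS and 452 bp from the lncRNA TSS. Gm12356 (chr11:98543729-98545729) had its reads nearer the partner's TSS. The window held 61 Zfp322a and 12 IgG reads, 4.75-fold, but the highest point was 757 bp downstream of its TSS and 104 bp from that of Psmd3, a proteasome subunit gene. Within 500 bp of the Gm12356 TSS the counts were 5 and 4, 1.17-fold.

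Tug1 (chr11:3547815-3549815), an abundant conserved lncRNA, stands 682 bp from Morc2a, an ATPase gene involved in silencing, and here the reads lay at the lncRNA end. It held 54 Zfp322a and 14 IgG reads, 3.60-fold (1.97 to 7.02, adjusted p = 6.70e-04, exact binomial), with the highest point 173 bp upstream of its own TSS and 509 bp from that of Morc2a. The heights were 15 against 6 reads. Among the other paired promoters of smallest p, C030044B11Rik beside Fam120a held 42 and 8 reads, 4.90-fold, and Gm10474 beside Fmr1, the gene of the fragile X protein, held 28 and 5, 5.23-fold. Gm10474 lies on the X chromosome, and with the libraries scaled by that chromosome's own totals its fold per read was 3.97.

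The X chromosome as a whole had a higher fold than the autosomes, at lncRNA and at coding genes. The 25 lone promoters on X had 168 Zfp322a and 90 IgG reads, 1.74 (1.34 to 2.28), and 4 were called, whereas the 670 on autosomes had 1.21 (1.16 to 1.25) and 19 calls. Of the 919 protein-coding promoters on X, 91 were called (9.90%), beside 5.18% of all windows. With each chromosome scaled by its own totals, 1 of the 4 calls on X was left, 6720401G13Rik, while 23 lone promoters on autosomes passed, 17 of them among the 19, beside 4.88% of all windows. Protein-coding promoters on X had 2.04 (1.95 to 2.13), and the lone promoters there were at 0.856 times that level (0.661 to 1.11). The X inactivation centre list had 2 members. Tsix (chrX:100625856-100627856), the antisense regulator of Xist, held 11 Zfp322a and 3 IgG reads, 3.43-fold (0.905 to 19.1), and passed the rule of reads and fold. Xist (chrX:100677556-100679556) held 8 and 2 reads, 3.74-fold (0.746 to 36.1), and had too few reads for a call. Within 500 bp of the TSS Xist had 1 read of each library, 0.934-fold, and its highest point lay 974 bp from the TSS. Tsix had 8 and 1 reads there, and with reads of any mapping quality its whole window held 11 and 5, 2.05-fold, under the limit of a call. Their adjusted p were 0.295 and 0.41 by the exact binomial test, and with the chromosome's own scaling the folds were 2.60 and 2.83. What raised the reads of the whole chromosome was not tested.

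Known lncRNAs were taken as lists by role, each with its counts beside the class. Hosts of snoRNAs and microRNAs gave 7 members of 18 listed, and all 7 had a fold per read above 1 over 2000 bp, as did 73.6% of the windows with at least 10 reads, with a median of 1.63, while 0 were called and 0 had an adjusted p under 0.05. Snhg7 held 30 Zfp322a and 10 IgG reads, 2.80-fold (1.33 to 6.43). Snhg12 held 31 and 12, 2.41-fold (1.21 to 5.16), and overlapped a deposited region. Gas5, a growth arrest transcript paired with Zbtb37, held 31 and 13, 2.23-fold (1.13 to 4.64). Their adjusted p lay at 0.0642, 0.105 and 0.143 by the exact binomial test, so none of the 3 passed. Snhg5 with 21 and 12 reads, Dleu2 with 12 and 8, Snhg1 with 20 and 16 and Snhg4 with 14 and 13 lay lower, from 1.63-fold to 1.01-fold. Within 500 bp of the TSS 5 of the 7 hosts were above 1, with Dleu2 at 0.374-fold (2 and 5 reads), Snhg4 at 0.934-fold and Gas5 at 1.28-fold. Pvt1, the neighbour of Myc in the same ES cell list as 1700020I14Rik, held 24 and 19 reads, 1.18-fold (0.620 to 2.28).

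Imprinted lncRNAs had as many IgG as Zfp322a reads for the most part. Of 5 members of 9 listed, 0 were called and the median fold was 0.934. Meg3 held 7 reads in each library, Mirg 5 in each and Airn, which silences Igf2r on the paternal allele, 6 in each. Rian held 3 and 2 reads. With so few reads the side of 1 depended on the counting: Meg3 and Mirg were at 1.09-fold with each chromosome's own scaling, Airn at 1.09-fold with reads moved 150 bp, and within 500 bp of the TSS Mirg was at 2.80-fold and Rian at 0.934-fold. Nespas, antisense in the Gnas domain, was the exception with 31 Zfp322a and 17 IgG reads, 1.70-fold (0.914 to 3.28), an interval that holds 1.

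LncRNAs beside developmental regulators gave 6 members of 25 listed, 0 called, with a median fold of 1.25. Vax2os1 held 20 Zfp322a and 10 IgG reads, Six3os1 12 and 8, Hoxa11as 7 and 6, Nkx2-2as 7 and 11, Dlx1as 4 and 5, and Sox2ot 3 and 2. The neighbours are homeobox and Sox genes, and the intervals of all 6 folds hold 1. Within 500 bp of the TSS Hoxa11as and Sox2ot were at 0.934-fold and Nkx2-2as was at 1.12-fold. Miat held 10 and 9 reads and Rmst 0 and 2, so among the nuclear RNAs only Tug1 of the 3 members had a call. Malat1 and Neat1, also on that list, were not members under the symbols used here.

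**Figure D5:**
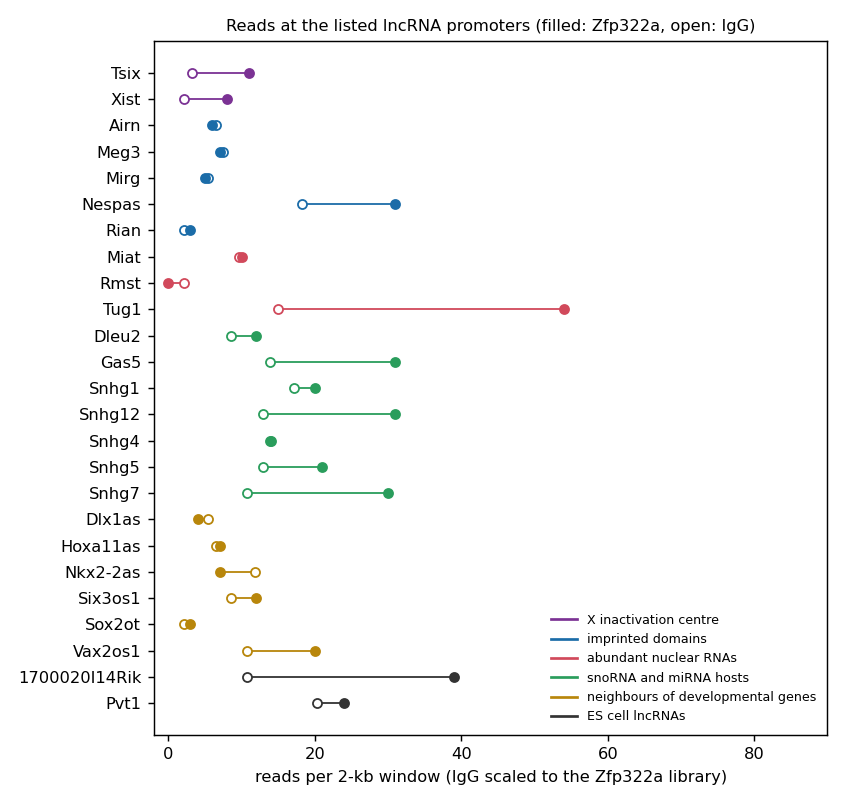
Zfp322a reads (filled) and IgG reads scaled to the Zfp322a library (open) in the 2000-bp window (x) of each listed lncRNA that was a member (y), coloured by list. Tug1 with 54 reads and 1700020I14Rik with 39 reads stand furthest from their IgG level, all 7 snoRNA and microRNA hosts have Zfp322a at or above IgG, and Meg3, Mirg and Airn have Zfp322a just below it, which changed side under other scalings or read positions.

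The 5 lone promoters with most IgG reads show how much the control alone can hold. 1810019D21Rik inside Esrp2 held 29 IgG and 19 Zfp322a reads, 0.612-fold, and A030009H04Rik held 28 and 26, 0.867-fold. 2410006H16Rik, 202 bp from the snoRNA gene Snord49b, held 27 IgG and 35 Zfp322a reads, 1.21-fold, and 14 reads of each library overlapped at the highest points. 4933417D19Rik inside Spata2L held 26 and 11, 0.395-fold (0.176 to 0.828, adjusted p = 0.10, exact binomial), and Gm10151 held 25 and 23, 0.859-fold. The 25 to 29 IgG reads of these promoters were as many as or more than the 18, 21 and 25 Zfp322a reads of the called C920006O11Rik, Gm11532 and Gm16912. 1810019D21Rik and 4933417D19Rik lie on chromosome 8, where the fold over the whole chromosome was also low, and with that chromosome's own scaling they were at 0.805-fold and 0.520-fold.

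For each of the 5 motifs, lone promoters with and without a match had folds whose intervals overlapped. With GGGCGG the fold per read of lone promoters was 1.21 (1.13 to 1.28) and without it 1.22 (1.17 to 1.28), and with CCAAT it was 1.25 (1.18 to 1.33) against 1.19 (1.14 to 1.25). With TATAAA it was 1.10 (0.972 to 1.23) against 1.23 (1.18 to 1.28). Paired promoters with AANATGGCG, 18 in number, had 1.90 (1.59 to 2.29) against 1.46 (1.42 to 1.51) without it. Over all promoters the same motif went with 1.57 (1.53 to 1.62) against 1.40 (1.40 to 1.41). Of the called promoters, GGGCGG was found in 7 of 23 lone (30.4%) and 20 of 32 paired ones (62.5%), and CCAAT in 10 lone and 11 paired ones. TATAAA was found in 2 called lone promoters (8.70%) and in 5 called paired ones (15.6%, beside 4.15% of all paired). Over all promoters it went the other way, with TATAAA in 102 of the 1225 called, beside 13.2% of all. There it also went with a lower fold, 1.26 (1.23 to 1.28) against 1.42 (1.42 to 1.43) without it. AANATGGCG was found in 0 called lone and 3 called paired promoters (9.38%, beside 3.11%), and GCGCATGC in 1 of each. These differences in shares were not tested.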

How the data were processed

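Mapping to mm9 was done by the authors, who deposited for every placed read of both libraries its position and a mapping quality score. The submitters' processing notes name CASAVA 1.4, BWA and Partek 6.6, with no roles. The authors also deposited the reads inside Zfp322a regions, 754 distinct ones, used here only for overlap. The paper reports more putative binding sites than these regions, so a promoter without overlap may still hold a reported site. Reads with a score of at least 25 were counted by their 5′ end in windows from GENCODE vM1, and sequence was read from the mm9 genome. Folds carry exact conditional binomial 95% intervals, quotients of folds intervals from the counts on the log scale, and shares exact Clopper-Pearson intervals. Overlapping windows share reads, so their intervals are too narrow to that extent. The tools were samtools 1.23.1 and pysam 0.24.0 for sequence, scipy 1.17.1 for the tests, and matplotlib 3.10.9, pandas 2.3.3 and numpy 2.4.6 under Python 3.11.15. Calls, the exact test and the intervals were tested on simulated counts. Window counts and distances were checked by direct recounting on a sample of the real windows.

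Members, lists and comparisons were chosen with earlier results of these data known. Named were the 12 lone and 8 paired promoters of smallest p with Zfp322a higher, the 5 lone promoters with most IgG reads, and every member on a list of known lncRNAs. One promoter that this rule names is not reported here. The comparisons by arrangement, gene body, exon, distance, chromosome and head-to-head coding genes were added after the first counts were seen. Alternatives were other mapping qualities, windows, read positions, scalings, distances, call rules and gene types. With 1 library for each antibody no library could be left out.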

Additional observations from a re-analysis of the deposited data

Results flagged for a closer look

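Reads with a mapping quality under 25 were left out of the main counts. Counted on their own, at 6 of the 1273 lncRNA promoters they passed the rule of 9 Zfp322a reads and 3-fold over IgG per read, beside 0.304% of all windows (72 of 23653). With the libraries exchanged the rule was passed at 2 lncRNA promoters, beside 0.0676% of all windows. At Gm17255, a lone promoter with 0 reads of higher quality in either library, 15 Zfp322a reads met 1 IgG read, 14-fold. At Gm6999 15 met 2, 6.99-fold, and at 4930467D21Rik 13 met 2, 6.06-fold. The values were 4.66-fold at 4930563E18Rik (10 and 2 reads), 3.73-fold at 1700003G18Rik (12 and 3) and 3.06-fold at 6430590A07Rik (23 and 7). Over all the lncRNA promoters there were 1793 and 1455 of them, a fold per read of 1.15.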

How the results depend on the processing

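No fold of a class and no called promoter among the 48 named crossed 1 under the alternatives run. Among the named promoters that were not called, 9 lay on the other side of 1 within 500 bp of the TSS, 2 with reads of any mapping quality (Miat at 0.849-fold and Hoxa11as at 0.934-fold), 1 with reads moved 150 bp and 3 with chromosome by chromosome scaling, Miat among them at 0.996-fold. The 9 were Dleu2, Xist, Sox2ot, Hoxa11as, Nkx2-2as, Rian, Mirg and Snhg4, given above, and A030009H04Rik at 1.01-fold. Counting within 500 bp of the TSS gave folds per read of 1.306 at lone, 1.568 at paired and 1.503 at protein-coding promoters. Scaling by windows away from TSSs gave 1.272, 1.543 and 1.476. Windows from 1000 bp before to 100 bp after the TSS gave 1.532 at paired promoters and 51 calls among the 578. Reads of any mapping quality gave 1.353 and joined windows 1.388 at protein-coding promoters. The quotient of lone over protein-coding promoters lay between 0.8458 and 0.8791 under the other settings. It was 0.8035 once 2222 processed_transcript genes with an antisense or lincRNA transcript were added after seeing the data. That addition gave 1.132 at lone promoters. Its classes were larger, with 56 calls among 2581 lone and 59 among 914 paired promoters. Of the 695 lone promoters, 39 were called with at least 6 reads, 78 with at least 2-fold and 11 by the exact binomial test. Of the 578 paired ones, 139 were called with at least 2-fold. Shares of all windows under the looser rules are not given, so these counts show only how calls depend on the rule. Of 48 named promoters, 5 moved beyond their interval within 500 bp of the TSS, 4 of them given above and Dleu2 at 0.374-fold. Scaling chromosome by chromosome and the ends of all transcripts of coding genes, both added after seeing the data, moved none of these folds or counts beyond its limit.

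No paired analysis was possible because each antibody has 1 library. The alternative with lincRNA genes only gave no separate value, since no gene had the type antisense. The median lone promoter had 7 Zfp322a reads, fewer than the 9 a call needs, and 487 of 695 held the 10 reads of both libraries that the test needs. The other lone promoters are described as a class and not one by one.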
